A study of Homo sapiens with 17 samples.

Results

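The 13 protein genes of the mitochondrial genome and 18 nuclear genes that transcribe, process, stabilise, degrade or replicate that genome were followed in YB5 cells under toyocamycin. All genes whose symbol starts with MT- were taken from the count table, and the nuclear genes were a fixed list of 7 transcription factors, 4 genes of RNA stability and decay, 3 genes of RNA processing and 4 genes of replication. All 31 were among the 19141 genes counted. YB5 is a line derived from SW48 human colon cancer cells and carries a GFP gene behind a silenced CMV promoter, which was present in both arms. Cells received 250 nM toyocamycin, an adenosine analog, or its vehicle DMSO, and polyadenylated RNA was sequenced. The labels give 2 libraries per arm at 2 h, 1 DMSO and 2 toyocamycin libraries at 10 h, 1 library per arm at 24 h and at 48 h, and 3 per arm at 72 h, 17 in all. The labels call the last time point 72 h, as here, while the study's methods give 96 h. Bulk RNA of 1 cell line was measured relative to each library's total, so fewer cells with a transcript and less of it per cell cannot be told apart.

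The mitochondrial genome is a small circle whose strands are each copied into long transcripts by POLRMT, a polymerase distinct from the nuclear RNA polymerases, together with TFAM, which packs the DNA and bends it at promoters, and TFB2M, which helps to open them. The transcripts are cut apart at their tRNAs, with ELAC2 cleaving the 3′ ends of the tRNAs. Most of the messenger RNAs receive tails from MTPAP and are held stable by the LRPPRC and SLIRP complex. SUPV3L1, a helicase, and PNPT1, a nuclease, degrade mitochondrial RNA, and the helicase TWNK with the polymerase POLG, its accessory subunit POLG2 and the binding protein SSBP1 copies the DNA. The 13 proteins are subunits of respiratory complexes I, III and IV and of ATP synthase, and most of their partner subunits come from the nucleus.

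Library totals ranged from 8735465 to 22121364 counts. Replicate 2 of toyocamycin at 10 h was the shallowest. The labels name 2 batches, with replicate 2 of both treatments at 2 h and 10 h in batch 2, so the only DMSO library of 10 h belongs to batch 2 while its toyocamycin partners come from both. In DMSO, the 2 libraries of batch 2 exceeded all 6 of batch 1 in the level of 12 of the 13 mitochondrially encoded genes, all but MT-ATP8. Of the nuclear genes, 4 were higher and 2 lower in those 2 libraries than in all 6, and 12 overlapped. MTERF1, among the higher ones, had only 1 count in each of those 2 libraries. The same comparison was not made over all genes, so it is not known whether the mitochondrial genes stand out in it. The summed level of 7 colon epithelial markers was 2262 to 7530 CPM (counts scaled to a common library total) in DMSO and 384 to 4516 CPM under toyocamycin. The 6 markers of blood, endothelial and connective tissue cells summed to 0.404 to 13.3 CPM in DMSO and 0.226 to 17.5 CPM under toyocamycin. At 72 h both lists moved with the treatment. The epithelial sum was 6722 to 7530 CPM in DMSO and 384 to 423 CPM under toyocamycin, with 6 of the 7 markers lower and 1, CDX2, higher by TMM. The markers of other cells summed to 0.404 to 1.32 CPM in DMSO and 2.45 to 15.4 CPM under toyocamycin, with 4 of 5 tested higher. PECAM1, an endothelial marker, and CD3E, a T cell marker, were at 0 in all 3 DMSO libraries. The part of the batch and of the markers in the results was not tested.

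The share of all counts that fell on the 13 mitochondrially encoded genes was higher under toyocamycin at 24 and 48 h and moved in opposite directions in the 2 batches at 2 h. In batch 1 at 2 h it was 1.42% in DMSO and 1.77% under toyocamycin, and in batch 2 it was 3.47% and 2.65%. The DMSO library of 10 h held 2.82%, and the toyocamycin libraries held 3.30% in batch 1 and 6.55% in batch 2, which makes a ratio of 2.33 within batch 2. With 1 library per arm, the share went from 1.46% to 3.49% at 24 h and from 1.40% to 3.29% at 48 h. The 3 DMSO libraries of 72 h held 0.917%, 1.11% and 1.49%, and the 3 toyocamycin libraries held 1.46%, 1.85% and 1.46%. The ranges of the arms therefore overlapped at 72 h, and the means stood at a ratio of 1.36. Counting error was small beside this spread, since no 95% Wilson interval of a share was wider than 0.0328 percentage points. Such intervals cover counting error only, because the reads carry no molecular identifiers and may repeat a molecule.

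Set against the summed counts of 82 nuclear genes for respiratory subunits, the mitochondrial sum separated the arms more clearly at the last time point. The nuclear sum was itself lower there, at 0.424% to 0.492% of all counts under toyocamycin and 0.852% to 0.928% in DMSO. At 48 h it was 0.544% under toyocamycin and 0.879% in DMSO. A higher ratio at these times therefore includes a lower nuclear sum. The ratio of the mitochondrial to the nuclear sum was 1.08, 1.24 and 1.60 in DMSO and 2.97, 4.37 and 3.29 under toyocamycin at 72 h. At 10 h it was 3.78 in the DMSO library and 3.04 and 5.86 under toyocamycin, on both sides of DMSO. Single libraries went from 1.77 to 4.56 at 24 h and from 1.59 to 6.05 at 48 h. At 2 h the batches again disagreed, from 1.61 to 1.94 in batch 1 and from 4.25 to 2.64 in batch 2.

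**Figure D1:**
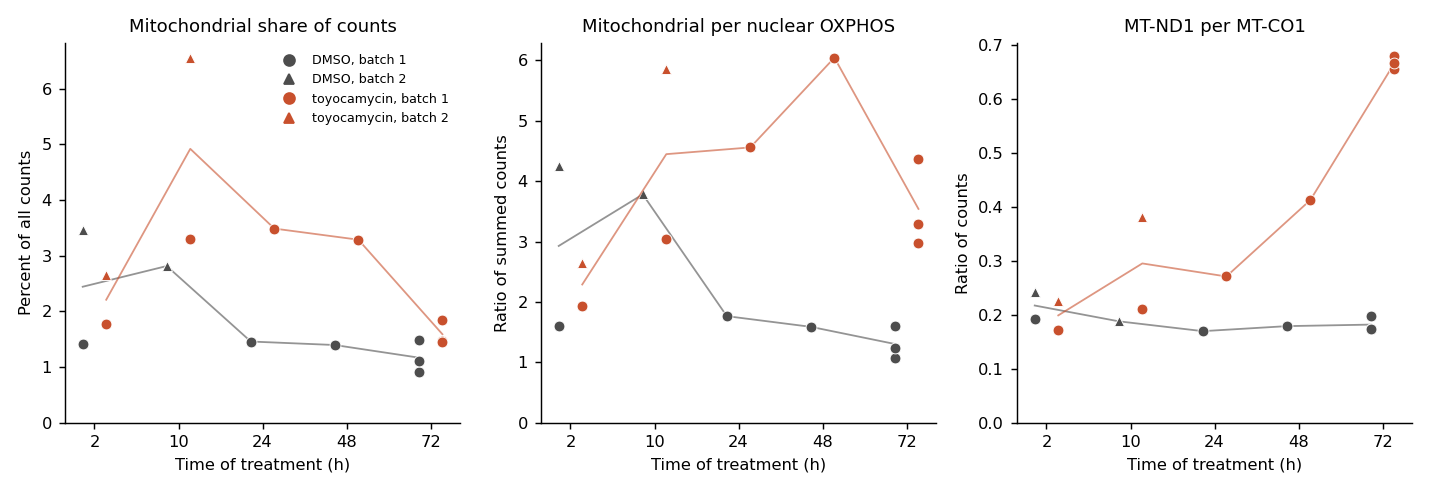
Percent of all counts on the 13 mitochondrially encoded genes (left), ratio of their summed counts to those of 82 nuclear genes of oxidative phosphorylation, OXPHOS (middle), and ratio of MT-ND1 to MT-CO1 counts (right), against hours of treatment. Each point is a library, triangles are batch 2 and lines join the means of an arm. The share overlaps between the arms at 72 h, while MT-ND1 per MT-CO1 lies at 0.654 to 0.678 in the 3 toyocamycin libraries of 72 h and at 0.170 to 0.242 in the 8 DMSO libraries.

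Differential expression was tested with edgeR at an adjusted p under 0.1, with libraries scaled by TMM, which assumes that most genes do not move, or by library size alone. The 2 scalings gave different centres: the median log2 fold change of all genes at 24, 48 and 72 h was 0.00, 0.16 and 0.18 by TMM and -0.91, -0.41 and -0.42 by library size. At 10 h it was 0.42 by TMM and -0.04 by library size. By TMM at 2 h, 0 of the 13 mitochondrially encoded genes were called in either direction, beside 0.518% of all genes tested called higher and 8.42% called lower. Their log2 fold changes ran from -0.30 for MT-ND1 and MT-ND3 to 0.69 for MT-ATP8, and the lowest adjusted p was 0.535. At an unadjusted p under 0.05, 0 of the 13 passed in edgeR and 0 in the DESeq2 Wald test. With the replicate block, which pairs the libraries by batch at 2 h, MT-ATP8 passed (0.80, adjusted p = 0.000754), 1 of 13, beside 8.72% of all genes called higher in that fit. Its 2 pairs differed, with a log2 ratio of CPM of 0.05 in batch 1 (217 counts in DMSO, 240 under toyocamycin). In batch 2 the ratio was 1.74, from low counts (52 in DMSO, 173 under toyocamycin). By library size, 0 of 13 were called too, beside 0.455% higher and 9.71% lower. Within batch 1 the CPM of 12 of the 13 was higher under toyocamycin, and within batch 2 that of 11 was lower.

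At 10 h, 8 of the 13 were higher and 0 lower by TMM, beside 20.4% and 24.4% of all genes tested, with a median log2 fold change of 1.49. By library size 6 were higher and 0 lower, beside 11.3% and 34.4%. MT-ATP8, a small ATP synthase subunit, moved most, by 3.56 on the log2 scale by TMM (SE 0.69, adjusted p = 0.000845), from 4.72 CPM in DMSO to 22.9 and 62.2 CPM. MT-ND5, a complex I subunit, had 1851 CPM in DMSO and 2686 and 7943 CPM under toyocamycin. The higher value came from batch 2 in each case. Within batch 2 all 13 genes were higher under toyocamycin, by 0.47 to 3.69 on the log2 scale, whereas the toyocamycin library of batch 1 exceeded the DMSO library of batch 2 in 9 of the 13. Without replicate 2 of toyocamycin, 5 of the 13 were called higher, and MT-ND1, MT-CYB and MT-CO3 were not. With batch as a term, 13 were called higher, beside 6239 of the 16521 genes tested in that fit. Without the term, 3375 of 16521 genes were called higher, so calls rose among all genes too.

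At 24 h, 12 of 13 were at least 2-fold higher by TMM, all but MT-ATP8, and 0 were at least 2-fold lower, beside 29.7% and 27.8% of all genes tested. By library size, 10 were at least 2-fold higher and 0 lower, beside 16.3% and 48.3%. At 48 h all 13 were at least 2-fold higher by TMM, beside 38.1% higher and 29.9% lower among all genes, and 7 by library size, beside 30.7% and 40%. These time points have no replicates and carry no test. MT-ND6, the complex I subunit encoded on the opposite strand from the other 12, went from 252 to 986 CPM at 24 h and from 276 to 980 CPM at 48 h. MT-ND1, a complex I subunit, went from 694 to 2310 CPM and then from 690 to 3030 CPM. MT-CO1, the catalytic core of complex IV, went from 4092 to 8533 CPM and from 3859 to 7346 CPM.

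At 72 h, 11 of 13 were higher and 0 lower by TMM, beside 47% and 41.9% of all genes tested, with a median log2 fold change of 1.10. By library size, 7 were higher and 0 lower, beside 39% and 50.4%. MT-ND1, MT-ND2, MT-ND4, MT-ND5, MT-ND6, MT-CYB and MT-ATP6 were called under both. MT-ND4L, MT-CO2, MT-CO3 and MT-ATP8 were called by TMM only, and MT-CO1 and MT-ND3 under neither. Complex I and complex III genes, which are most of the 13, made up 6 of the 7 that rose under both scalings. No complex IV gene was among them. MT-CO1 did pass at 72 h with DESeq2's size factors (0.64, adjusted p = 0.042 in edgeR), with at least 10 counts in every library (0.60, adjusted p = 0.0762) and in the libraries of 72 h alone (0.42, adjusted p = 0.0284), where MT-ND3 passed too (0.27, adjusted p = 0.0748), so that all 13 were called higher, beside 45.7% of all genes higher and 44.6% lower.

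The values behind this at 72 h differed from gene to gene. MT-ND1 had 521, 577 and 780 CPM in DMSO and 1727, 2224 and 1741 CPM under toyocamycin, a log2 fold change of 2.21 by TMM (SE 0.34, adjusted p = 1.77e-05). MT-ND2, also of complex I, had 447, 483 and 690 CPM in DMSO and 1142, 1371 and 1072 CPM under toyocamycin. Every toyocamycin library of both genes lay above every DMSO library. MT-ND5 had 807, 908 and 1291 CPM in DMSO and 1748, 2105 and 1662 CPM under toyocamycin. MT-CYB, the cytochrome b of complex III, had 493, 551 and 733 CPM in DMSO and 994, 1300 and 1020 CPM under toyocamycin. MT-ND6 had 205, 230 and 342 CPM in DMSO and 478, 666 and 509 CPM under toyocamycin. These 3 genes did not overlap between the arms either, and their log2 fold changes by TMM were 1.48, 1.51 and 1.70.

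MT-ND4, another complex I gene, had 1443, 1800 and 2344 CPM in DMSO and 2412, 3068 and 2421 CPM under toyocamycin, so its lowest toyocamycin library was close to its highest DMSO library. MT-ND4L had 132, 120 and 143 CPM in DMSO and 154, 166 and 147 CPM under toyocamycin. MT-ATP6, a membrane subunit of ATP synthase, had 569, 771 and 977 CPM in DMSO and 855, 1360 and 1034 CPM under toyocamycin, and the arms overlapped. MT-CO1 had 2639, 3307 and 4499 CPM in DMSO and 2640, 3280 and 2618 CPM under toyocamycin, with a log2 fold change of 0.32 by TMM (SE 0.28, adjusted p = 0.295) and -0.29 by library size (adjusted p = 0.311). MT-CO2 had 778, 1050 and 1350 CPM in DMSO and 956, 1281 and 1011 CPM under toyocamycin, and MT-CO3 had 814, 923 and 1276 CPM in DMSO and 1260, 1398 and 1081 CPM under toyocamycin. These genes of complex IV overlapped between the arms. MT-ND3 had 318, 329 and 445 CPM in DMSO and 252, 294 and 257 CPM under toyocamycin, which put it below DMSO in every library, with a log2 fold change of 0.16 by TMM (adjusted p = 0.594) and -0.44 by library size (adjusted p = 0.137).

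**Figure D2:**
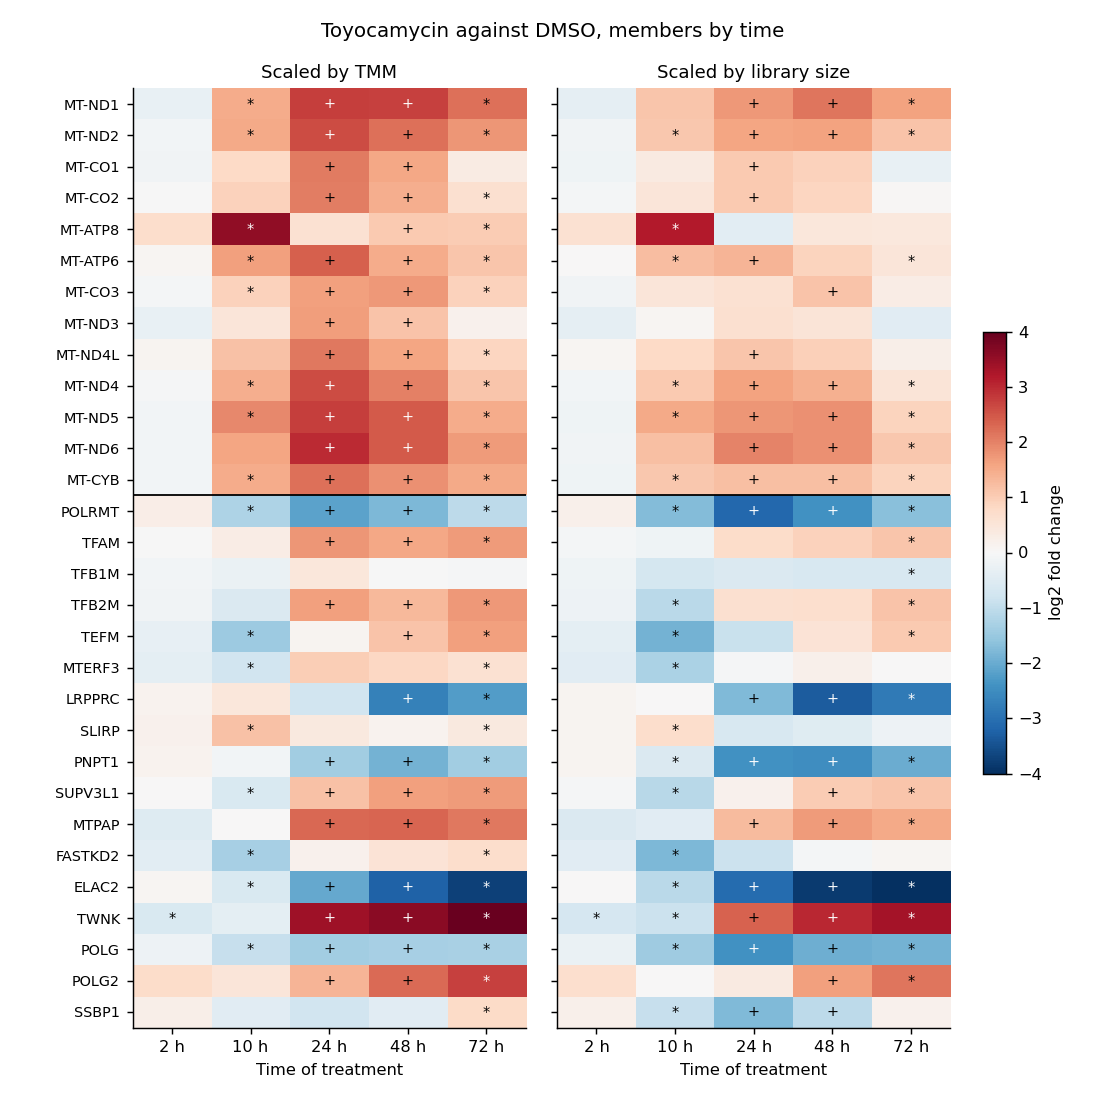
Log2 fold change of toyocamycin against DMSO for 30 genes (rows; MTERF1 is left out for low counts) at 5 times (columns), scaled by TMM (left) and by library size (right). A star marks an adjusted p under 0.1 at 2, 10 and 72 h, a plus marks at least 2-fold at 24 and 48 h, which have no test, and the line divides mitochondrial from nuclear genes. Of the 13 mitochondrial rows, 8 carry a star for higher at 10 h and 11 at 72 h by TMM, against 6 and 7 by library size, where MT-CO1 and MT-ND3 lie below 0 at 72 h. POLRMT, LRPPRC, PNPT1, ELAC2 and POLG turn lower while TWNK, POLG2, MTPAP, TFB2M and TFAM turn higher by 72 h.

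Within the mitochondrial counts, the balance moved from complex IV to complex I, and this does not depend on how nuclear RNA is scaled. Because polyadenylated RNA was sequenced, a change in tails and a change in the amount of a transcript cannot be told apart in these shares. MT-ND1 took 5.38% ± 0.255 (SD, n = 3) of the mitochondrial counts in DMSO at 72 h and 11.9% ± 0.102 (SD, n = 3) under toyocamycin. MT-CO1 took 29.6% ± 0.783 (SD, n = 3) in DMSO and 17.9% ± 0.176 (SD, n = 3) under toyocamycin. Together the complex I genes went from 41.0% ± 1.06 (SD, n = 3) to 53.7% ± 0.360 (SD, n = 3), and the complex IV genes from 47.3% ± 0.9999 (SD, n = 3) to 32.6% ± 0.559 (SD, n = 3). The single toyocamycin libraries of 24 and 48 h had complex I at 45.3% and 47.4% and complex IV at 41.9% and 39.9%. At 10 h the 2 toyocamycin libraries differed, with complex I at 40.9% in batch 1 and 48.6% in batch 2 and complex IV at 44.6% and 34.6%, beside 37.7% and 49.9% in the DMSO library. Over all 8 DMSO libraries, batch 2 included, complex I stayed between 35.6% and 42.2% and complex IV between 46.1% and 51.8%.

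In the 3 toyocamycin libraries of 72 h, the shares of 6 genes (MT-ND1, MT-ND2, MT-ND4, MT-ND5, MT-ND6 and MT-CYB) lay above those of all 8 DMSO libraries, and the shares of 3 (MT-CO1, MT-CO2 and MT-ND3) lay below. The other 4 overlapped. MT-ND2 went from 4.63% ± 0.251 to 7.52% ± 0.248, MT-ND5 from 8.57% ± 0.309 to 11.6% ± 0.330 and MT-ND3 from 3.14% ± 0.279 to 1.69% ± 0.0908 (SD, n = 3 per arm). MT-ND3 thus ran against MT-ND1, MT-ND2, MT-ND4, MT-ND5 and MT-ND6. The share of MT-ND4L, the remaining complex I gene, overlapped, at 1.16% ± 0.251 in DMSO and 0.985% ± 0.0807 under toyocamycin (SD, n = 3 per arm). With libraries scaled on the mitochondrial total at 72 h, edgeR called MT-ND1 higher (1.15, SE 0.43, adjusted p = 0.0115) and MT-CO1 (-0.73, SE 0.41, adjusted p = 0.0926) and MT-ND3 (-0.90, SE 0.45, adjusted p = 0.0578) lower, beside 29% of all genes higher and 50.8% lower. At 2 h this scaling called 0 of 13, beside 0.0828% higher and 0.6% lower. The mitochondrial total differs between the batches, and standard errors were larger under this scaling (0.48 against 0.12 for TWNK at 72 h).

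**Figure D3:**
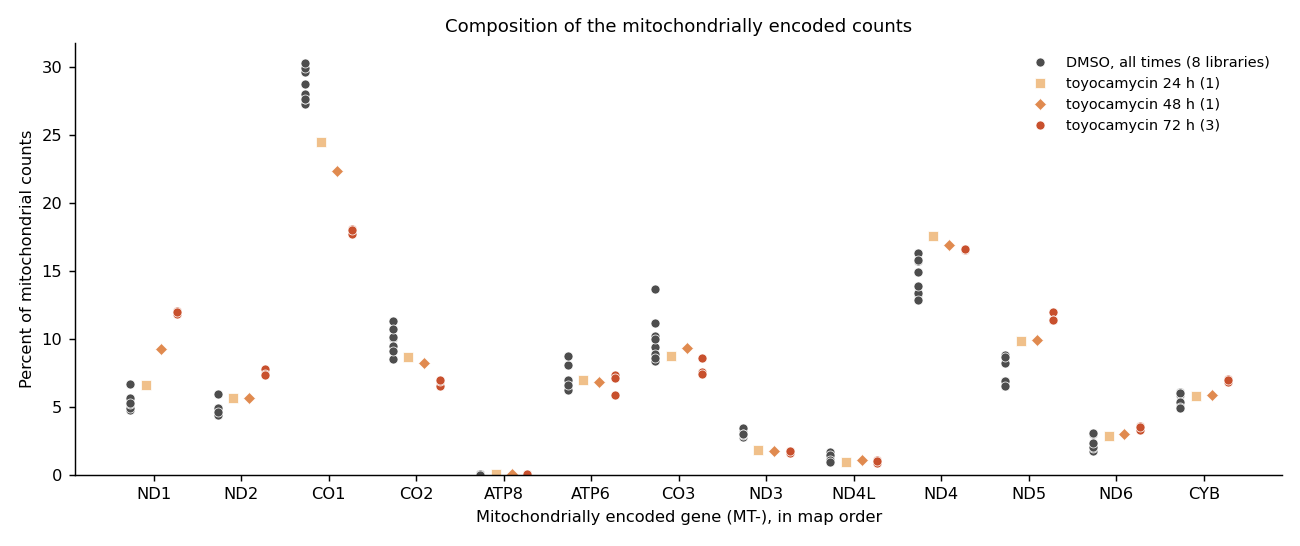
Percent of the mitochondrial counts that fell on each of the 13 genes, in their order on the mitochondrial map, for the 8 DMSO libraries and for toyocamycin at 24, 48 and 72 h. Each point is a library. The 3 toyocamycin libraries of 72 h lie above all DMSO libraries for MT-ND1 (11.8% to 12.01% against 4.75% to 6.68%) and below them for MT-CO1 (17.7% to 18.1% against 27.3% to 30.3%).

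Per length, MT-CO1 was the most abundant of the 13 in DMSO at 72 h, at 2258 ± 611 CPM per kilobase (SD, n = 3), followed by MT-CO2 at 1549 ± 418, and MT-ATP8 the least at 25.4 ± 13.3. These neighbours at the top did not differ beyond their spread. Under toyocamycin, MT-ND1 at 1985 ± 296, MT-ND4 at 1911 ± 273 and MT-CO1 at 1846 ± 244 CPM per kilobase (SD, n = 3) stood at the top, and their ranges overlapped. In DMSO, MT-ND1 had stood at 655 ± 143 CPM per kilobase, below every complex IV gene.

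Some of the 13 genes share reads with each other or with copies in the nuclear genome, and their own levels are less certain. MT-ATP8 and MT-ATP6 overlap on the forward strand at chrM:8527-8572 of GRCh38, and a read pair that touches both genes is counted for neither by the counting used. Only 161 of the 207 bases of MT-ATP8 are its own, which is less than the insert length of 250 to 300 bases, and its counts ran from 52 to 543 per library. The shared stretch is shown because it holds the start of MT-ATP6 (the first 3 bases, in lower case like the rest) and the end of MT-ATP8.
MT-ATP8 and MT-ATP6 overlap: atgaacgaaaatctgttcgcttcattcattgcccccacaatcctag
MT-ND4L shares 7 of its 297 bases with MT-ND4. MT-ND6 lies on the opposite strand from the rest of the 13, and the strand setting of the counting is not stated. Of all windows of 150 bases, the read length, 15.7% in MT-ND2, 14.5% in MT-CO1 and 1.12% in MT-ND1 have an exact copy in the nuclear genome of GRCh38. The alignment found none in the other 10 genes. Allowing 2 mismatches raised this to 59.8%, 51.1% and 25.2%, and to 62.0% in MT-ATP6, 48.2% in MT-CO2 and 23.1% in MT-CO3. At 72 h the share of MT-ND2 in the mitochondrial counts was higher and that of MT-CO1 lower under toyocamycin. The part of these copies in the results was not tested.

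Of the 18 nuclear genes, 17 passed the filter on low counts in the fit for 2, 24, 48 and 72 h. MTERF1, a termination factor, was at 0 to 9 counts per library and was not tested there. Toyocamycin moved these genes in both directions and mostly late. At 2 h, 0 were higher and 1 (TWNK) lower by TMM and by library size, and the other 16 did not pass the test. The replicate block called 1 higher, POLG2 (0.75, adjusted p = 0.0243), and 3 lower, TWNK, MTPAP and FASTKD2, beside 8.72% and 18.7% of all genes tested in that fit. At 10 h, 1 was higher and 7 lower of 18 by TMM, and 1 and 11 by library size. SLIRP was the higher one, at 32.7 CPM in DMSO and 51.4 and 55.2 CPM under toyocamycin, and POLRMT, TEFM, MTERF3, SUPV3L1, FASTKD2, ELAC2 and POLG were the 7 lower ones by TMM. In DMSO, SLIRP and POLRMT were lower in both libraries of batch 2 than in all 6 of batch 1, and the DMSO library of 10 h is one of these. Without replicate 2 of toyocamycin, 4 were called lower, and the calls of POLRMT, MTERF3 and SUPV3L1 were lost. Past 2-fold, 6 were higher and 4 lower of 17 at 24 h and 7 and 5 at 48 h by TMM, and 2 and 6, then 4 and 6 by library size. At 72 h, 11 were higher and 5 lower by TMM, and 7 and 6 by library size. The shares among all genes tested at each time are those given above, and at 72 h 16 of 17 genes called by TMM compares with 47% and 41.9% of all genes in the 2 directions.

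Among the transcription genes, the polymerase POLRMT fell at 72 h while TFAM, TFB2M and TEFM rose. POLRMT (chr19:617221-633537) had 407, 381 and 258 CPM in DMSO and 91.6, 111 and 128 CPM under toyocamycin, a log2 fold change of -1.06 by TMM (SE 0.24, adjusted p = 0.000794). It was already lower at 10 h, at 209 CPM in DMSO against 78.6 and 47.3 CPM, a call that was lost without replicate 2 of toyocamycin (-0.79, adjusted p = 0.141). TFAM (chr10:58385345-58399220) had 83.8, 78.0 and 108 CPM in DMSO and 226, 173 and 183 CPM under toyocamycin, a log2 fold change of 1.71 (SE 0.18, adjusted p = 3.08e-07). TFB2M (chr1:246540561-246566261) had 40.3, 35.5 and 42.2 CPM in DMSO and 95.8, 71.8 and 89.8 CPM under toyocamycin, a log2 fold change of 1.72 (SE 0.14, adjusted p = 1.8e-08). None of these overlapped between the arms, which was a condition for giving their values by library.

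TFB2M had not risen at 10 h, with 35.0 CPM in DMSO and 19.1 and 13.9 CPM under toyocamycin (-0.58 by TMM, adjusted p = 0.118; -1.07 by library size, adjusted p = 0.00234). TEFM, the elongation factor, fell at 10 h by 1.45 on the log2 scale (SE 0.43, adjusted p = 0.0151) and rose at 72 h by 1.63 (SE 0.26, adjusted p = 2.35e-05). TFB1M, a methyltransferase of the small ribosomal RNA related to TFB2M, had a log2 fold change of -0.04 by TMM at 72 h (adjusted p = 0.894) and fell by 0.64 by library size (adjusted p = 0.023). Of its exon bases, 30.7% overlap TIAM2 on the other strand, which went from 1.24 ± 0.268 to 9.88 ± 0.300 CPM (SD, n = 3), and the strand setting of the counting is not stated. MTERF3, of the same family as MTERF1, had a log2 fold change of 0.61 by TMM (adjusted p = 0.00187) and 0.01 by library size (adjusted p = 0.96).

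The promoters of these genes are shown because nuclear respiratory factor 1 (NRF1) and GABP are the textbook regulators of nuclear genes for mitochondria. Of the 18 nuclear genes, 16 matched an entry in the table of RefSeq promoters used here (GRCh38.p14), which does not include TWNK and MTERF3. In windows of 250 bases before to 50 after the start, on both strands, GCGCANGCG, taken as the NRF1 motif, was in 6 of the 16 and in 7.52% of 35116 promoters, and CCGGAAG, taken as the GABP motif, in 8 of the 16 and in 10.3%. The units differ: the 16 were counted by gene, if any of its promoters held the motif, and the 35116 by promoter. The 140 bases before the start are given 5′ to 3′ on the gene's strand for the 6 with the NRF1 motif, with capitals for either motif on either strand (CTTCCGG is the second read on the other strand).
POLRMT, chr19:633538-633677, minus strand: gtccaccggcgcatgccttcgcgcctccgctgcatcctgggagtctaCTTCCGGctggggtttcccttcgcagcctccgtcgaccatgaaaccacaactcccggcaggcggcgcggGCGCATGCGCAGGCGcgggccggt
TFAM, chr10:58385270-58385409, plus strand: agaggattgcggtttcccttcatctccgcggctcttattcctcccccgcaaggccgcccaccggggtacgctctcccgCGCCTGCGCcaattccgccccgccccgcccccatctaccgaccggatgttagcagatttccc
TFB1M, chr6:155314485-155314624, minus strand: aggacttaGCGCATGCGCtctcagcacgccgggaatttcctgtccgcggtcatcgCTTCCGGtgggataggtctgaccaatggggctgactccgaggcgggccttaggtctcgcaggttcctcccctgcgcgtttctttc
TFB2M, chr1:246566262-246566401, minus strand: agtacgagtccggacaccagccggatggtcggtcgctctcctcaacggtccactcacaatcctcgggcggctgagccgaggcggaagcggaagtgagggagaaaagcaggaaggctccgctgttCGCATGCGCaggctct
MTPAP, chr10:30349279-30349418, minus strand: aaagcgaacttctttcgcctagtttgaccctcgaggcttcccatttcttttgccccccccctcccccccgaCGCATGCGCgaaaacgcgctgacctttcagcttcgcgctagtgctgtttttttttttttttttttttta
POLG2, chr17:64497055-64497194, minus strand: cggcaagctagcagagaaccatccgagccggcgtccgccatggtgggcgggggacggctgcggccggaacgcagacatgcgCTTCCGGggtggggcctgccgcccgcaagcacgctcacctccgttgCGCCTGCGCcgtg
In POLRMT and TFB1M, several overlapping matches make up 1 run of capitals. Of these 6 genes, TFAM, TFB2M, MTPAP and POLG2 rose at 72 h and POLRMT fell, and TFB1M did not pass the test by TMM. The GABP motif was in the windows of POLRMT, TFB1M, TEFM, MTERF1, SLIRP, ELAC2, POLG2 and SSBP1, which likewise included genes that rose and genes that fell.

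In both complexes of mitochondrial RNA stability and decay, 1 partner fell at 72 h and the other did not. LRPPRC (chr2:43886224-43996226) had 372, 383 and 485 CPM in DMSO and 62.5, 52.4 and 58.7 CPM under toyocamycin, a log2 fold change of -2.23 by TMM (SE 0.15, adjusted p = 1.2e-09). At 10 h its level was 422 CPM in DMSO and 333 and 517 CPM under toyocamycin and it did not pass the test (adjusted p = 0.18). SLIRP, its binding partner, had 59.9, 60.2 and 71.2 CPM in DMSO and 65.6, 48.3 and 53.3 CPM under toyocamycin at 72 h. The arms overlapped, with log2 fold changes of 0.40 by TMM (SE 0.14, adjusted p = 0.0131) and -0.20 by library size (adjusted p = 0.228), so the direction of SLIRP turned with the scaling.

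PNPT1 (chr2:55634061-55693863) had 52.6, 54.3 and 68.6 CPM in DMSO and 15.1, 14.5 and 14.8 CPM under toyocamycin, a log2 fold change of -1.38 (SE 0.14, adjusted p = 1.98e-07). SUPV3L1, the helicase that works with it, had 79.7, 71.1 and 94.2 CPM in DMSO and 202, 158 and 165 CPM under toyocamycin, a log2 fold change of 1.70 (SE 0.14, adjusted p = 9.95e-09). It had been lower at 10 h, at 55.0 CPM in DMSO and 26.8 and 24.4 CPM under toyocamycin. Neither gene overlapped between the arms at 72 h, which for PNPT1 was a condition for giving its values by library.

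The 3 genes of RNA processing split in the same way. ELAC2 (chr17:12991612-13018065) fell furthest at 72 h of the 30 genes tested there by TMM. It went from 238, 231 and 210 CPM in DMSO to 10.3, 12.1 and 11.4 CPM under toyocamycin, a log2 fold change of -3.73 (SE 0.14, adjusted p = 2.5e-12). Its level in DMSO and under toyocamycin was 235 CPM against 99.9 and 123 CPM at 10 h, 215 against 25.5 CPM at 24 h and 231 against 16.3 CPM at 48 h. ARHGAP44, which shares 0.5% of the ELAC2 exon bases on the other strand, went from 23.7 ± 1.13 to 1.498 ± 0.186 CPM (SD, n = 3). MTPAP (chr10:30309801-30374448) had 42.7, 42.6 and 58.4 CPM in DMSO and 144, 126 and 141 CPM under toyocamycin at 72 h, a log2 fold change of 2.12 (SE 0.16, adjusted p = 5.49e-09). The pseudogene GOLGA2P6 covers 19.5% of its exon bases on the same strand. At 2 h, in contrast, its CPM was lower in both batches, at 40.9 against 28.9 and 54.3 against 35.4, and it passed the test with the replicate block (adjusted p = 0.000799) but not without it (adjusted p = 0.17). FASTKD2, which binds the large ribosomal RNA, had a log2 fold change of 0.69 by TMM (adjusted p = 0.0035) and 0.09 by library size (adjusted p = 0.659) at 72 h, and fell at 10 h by 1.33 by TMM.

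TWNK (chr10:100987367-100994403) rose furthest at 72 h of the 30 genes tested there by TMM. It had 77.0, 74.3 and 76.3 CPM in DMSO and 801, 736 and 762 CPM under toyocamycin at 72 h, a log2 fold change of 3.94 (SE 0.12, adjusted p = 7.87e-13). The single libraries went from 60.1 to 309 CPM at 24 h and from 82.5 to 664 CPM at 48 h. Before that it was lower: 65.4 and 64.7 CPM in DMSO against 39.3 and 42.7 CPM under toyocamycin at 2 h, a fall by 0.61 on the log2 scale (SE 0.14, adjusted p = 0.0129), and 71.2 against 41.4 and 36.5 CPM at 10 h (-0.39 by TMM, adjusted p = 0.186; -0.87 by library size, adjusted p = 0.0016). The call at 2 h was lost without replicate 1 of toyocamycin (adjusted p = 0.111), with all 17 libraries in the fit (adjusted p = 0.107) and in the libraries of 2 h alone (adjusted p = 0.142). MRPL43, which shares 3.6% of the TWNK exon bases on the other strand, went from 48.6 ± 3.10 to 8.82 ± 2.13 CPM (SD, n = 3) at 72 h.

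The subunits of the mitochondrial DNA polymerase moved apart. POLG (chr15:89305198-89334861), the catalytic subunit, had 113, 100.7 and 84.0 CPM in DMSO and 22.0, 26.7 and 31.3 CPM under toyocamycin at 72 h, a log2 fold change of -1.29 (SE 0.18, adjusted p = 6.02e-06). POLG2 (chr17:64477785-64497054), the accessory subunit, had 6.10, 6.21 and 6.31 CPM in DMSO and 29.4, 22.4 and 29.6 CPM under toyocamycin, a log2 fold change of 2.72 (SE 0.20, adjusted p = 4.44e-09). FANCI shares 5.5% of the POLG exon bases on the other strand and went from 68.5 ± 7.47 to 2.37 ± 0.301 CPM (SD, n = 3). SSBP1 had a log2 fold change of 0.76 by TMM (adjusted p = 0.00123) and 0.16 by library size (adjusted p = 0.424), and at 24 h its single libraries went from 89.5 to 26.0 CPM.

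**Figure D4:**
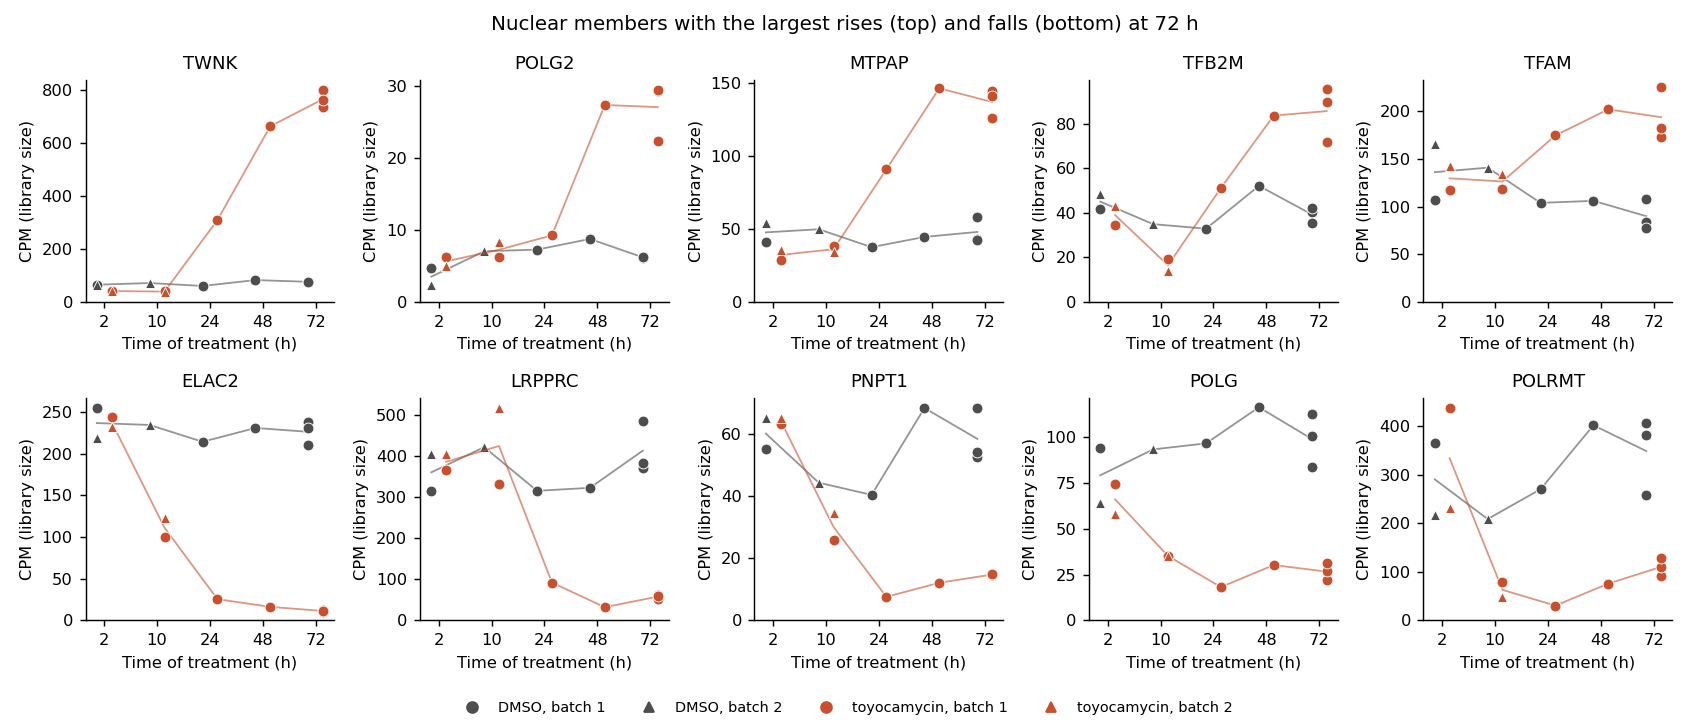
CPM by library size of the 5 nuclear genes with the largest rises (top row) and the 5 with the largest falls (bottom row) at 72 h against hours of treatment. Each point is a library, triangles are batch 2 and lines join the means of an arm. TWNK reaches 736 to 801 CPM and ELAC2 drops to 10.3 to 12.1 CPM in the 3 toyocamycin libraries of 72 h, while DMSO stays at 60.1 to 82.5 CPM and 210 to 255 CPM over all times.

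Ratios of partner genes, chosen after their values were seen, do not depend on scaling between libraries and are given as a description. POLG2 per POLG was 0.0366 to 0.0754 in the 8 DMSO libraries, 0.509 at 24 h, 0.907 at 48 h and 1.04 ± 0.266 (SD, n = 3) at 72 h under toyocamycin. At 2 h it was already 0.0845 and 0.0863 under toyocamycin, above all DMSO libraries. SUPV3L1 per PNPT1 was 0.945 to 1.52 in DMSO and 0.708 to 1.04 under toyocamycin at 2 and 10 h, in part below DMSO, and then stood at 8.60 at 24 h and 11.8 ± 1.41 (SD, n = 3) at 72 h. SLIRP per LRPPRC was 0.0776 to 0.233 in DMSO and 0.960 ± 0.0785 (SD, n = 3) at 72 h. TFAM per POLRMT was 0.205 to 0.766 in DMSO, 1.501 and 2.85 at 10 h, 5.73 at 24 h and 1.82 ± 0.566 (SD, n = 3) at 72 h under toyocamycin. Thus the ratio of TFAM to POLRMT lay above the range of DMSO in both libraries of 10 h, and that of SUPV3L1 to PNPT1 from 24 h on.

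**Figure D5:**
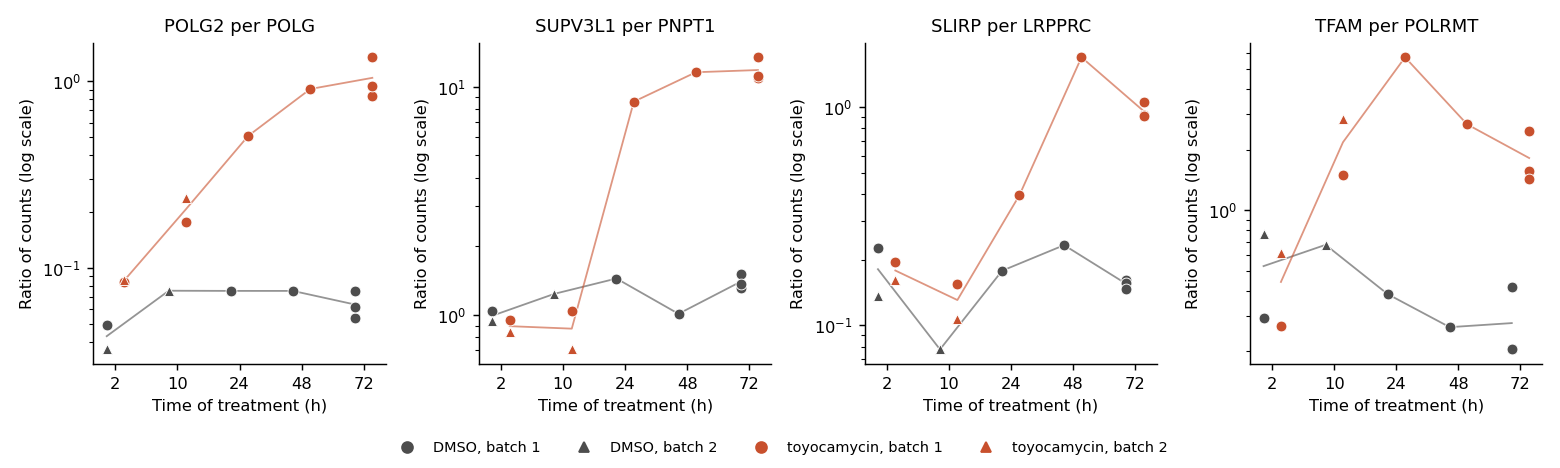
Ratio of the counts of partner genes (log axis) against hours of treatment, for the subunits of the DNA polymerase, the RNA decay pair, the RNA stability pair and 2 transcription genes. Each point is a library, triangles are batch 2 and lines join the means of an arm. From 24 h on, every toyocamycin library lies above all 8 DMSO libraries in all 4 panels.

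The effects of 72 h and 2 h were then compared by their interaction in the fit of 14 libraries. Of the mitochondrially encoded genes 8 had a higher effect at 72 h than at 2 h and 0 a lower one, and of the nuclear genes 9 and 5, beside 38% and 38.1% of all genes tested. By library size these counts were 5 and 0, and 7 and 5, beside 31.2% and 45.7%. MT-ND1 had the largest such difference of the 13, 2.51 on the log2 scale (SE 0.52, adjusted p = 0.000478), and TWNK that of the nuclear genes, 4.55 (SE 0.19, adjusted p = 5.37e-11). The difference at 2 h rests on 1 pair of libraries in each batch.

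Other mitochondrial genes, from lists fixed with the 31, moved in both directions at 72 h by TMM. Of 21 further genes of mitochondrial RNA processing, 11 rose and 4 fell (median log2 fold change 0.53), beside 47% and 41.9% of all genes. By library size 8 rose and 9 fell (median -0.07), beside 39% and 50.4%. Of 14 further genes of mitochondrial DNA maintenance, 4 rose and 7 fell by TMM (median -0.27), and 4 and 10 by library size (median -0.87). MGME1, a nuclease of mitochondrial DNA, rose from 21.5 ± 3.43 to 250 ± 13.1 CPM, and LIG3, the mitochondrial DNA ligase, fell from 74.0 ± 2.81 to 2.95 ± 1.23 CPM (SD, n = 3). GRSF1, an RNA-binding protein of mitochondrial RNA granules, fell by 1.06 on the log2 scale. MRM2, a methyltransferase of the large ribosomal RNA, went from 0.105 ± 0.0915 to 13.9 ± 2.52 CPM (SD, n = 3), from few counts in DMSO.

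Of 8 regulators of mitochondrial biogenesis, 6 rose and 2 fell at 72 h by TMM, beside 47% and 41.9% of all genes, and 5 and 2 by library size, beside 39% and 50.4%. ESRRA, a nuclear receptor that drives genes of oxidative metabolism, fell from 154 ± 26.5 to 14.5 ± 1.90 CPM, and PPARGC1A, a coactivator, rose from 0.133 ± 0.146 to 2.20 ± 0.136 CPM (SD, n = 3). At 2 h, 2 of the 8 fell by TMM, beside 8.42% of all genes tested. These were PPRC1, a coactivator related to PPARGC1A, by 1.55 on the log2 scale (SE 0.16, adjusted p = 2.74e-05), and NRF1 by 1.10 (SE 0.17, adjusted p = 0.000816). They were named after their values were seen. PPRC1 had risen at 72 h (1.26, adjusted p = 1.36e-07), while NRF1 was still lower (-0.46, adjusted p = 0.0063).

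The nuclear subunits of the same respiratory complexes moved in both directions at 72 h. Of 81 tested, 26 rose and 41 fell by TMM, beside 47% and 41.9% of all genes. The median of their log2 fold changes was -0.30, beside 1.10 for the mitochondrially encoded genes and 0.18 for all genes. By library size 17 rose and 53 fell (median -0.90), beside 39% and 50.4%. At 10 h 63 had risen and 1 had fallen by TMM, beside 20.4% and 24.4% of all genes, with a median of 1.07 beside 1.49 for the mitochondrially encoded genes and 0.42 for all genes. By library size 44 had risen and 3 had fallen at 10 h (median 0.61), beside 11.3% and 34.4%. The comparison at 10 h rests on 1 DMSO library, of batch 2. Its nuclear sum, 0.745% of all counts, was the lowest of the 8 DMSO libraries (0.745% to 0.928%). The toyocamycin libraries of 10 h held 1.085% and 1.117%, above all 8. The part of the batch in this was not tested. UQCRC1, a complex III subunit, fell most at 72 h, from 531 ± 11.4 to 10.3 ± 1.31 CPM (SD, n = 3), and NDUFV2, a complex I subunit, went from 0.135 ± 0.145 to 9.34 ± 1.67 CPM. Of 77 proteins of the mitochondrial ribosome, which translates the 13 messenger RNAs, 40 rose and 29 fell at 72 h by TMM (median 0.36), shares close to the 47% and 41.9% of all genes, and 24 rose and 38 fell by library size (median -0.24), beside 39% and 50.4%. MRPL28 fell from 117 ± 10.9 to 9.91 ± 0.797 CPM, and MRPS24 went from 0.0512 ± 0.00344 to 2.42 ± 1.03 CPM (SD, n = 3).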

How the data were processed

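The authors aligned the reads to GRCh38 (Ensembl 100) with STAR 2.7.5a and deposited raw counts per gene, without normalization. The strand setting of the counting is not given in the sources used here. The authors' own comparisons, log2 fold changes and p-values from edgeR, were not used. Of the 19141 genes, 19080 matched a symbol, and 1 column that matches no deposited sample was left out. Totals ranged from 8735465 to 22121364 counts.

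Counts were tested with edgeR 4.0.16 in R 4.3.3 (filterByExpr, TMM, quasi-likelihood test in the form of edgeR 3), with Benjamini-Hochberg adjustment over all genes. The fit of 14 libraries (14491 genes) served 2, 24, 48 and 72 h, and that of all 17 (16521 genes) served 10 h, where the lone DMSO library was assumed to vary like the other groups. CPM are per total count. The labels speak of biological triplicates but tie no library to a culture, so p-values measure the spread between libraries, which may be technical. Replicate numbers pair the libraries at 2 h, where they are the batches (correlation of deviations 0.342), and not at 72 h (-0.133, 0.061 and -0.118).

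The genes and lists were chosen with earlier results of these data known. Values by library are given for the mitochondrial genes and for 10 nuclear genes, the 5 largest rises and 5 largest falls at 72 h past the threshold without overlap between the arms, with partner genes added after values were seen. Of the other lists, the largest rise and fall are named. Alternatives were DESeq2 1.42.0 (its size factors and its Wald test), library size, the mitochondrial total, other filters, other sets of libraries, batch as a term, the replicate block, edgeR 4's test, an adjusted p under 0.05 and leaving out each library. The fits to libraries of 1 time point alone and the ratios within batches were added after seeing the data. Nuclear copies were found by alignment with minimap2 2.31, and a full-length alignment without a mismatch was taken as an exact copy.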

Additional observations from a re-analysis of the deposited data

Results flagged for a closer look

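The effect of toyocamycin at 72 h differed from that at 2 h, by the interaction in edgeR at an adjusted p under 0.1 over all genes tested, for 22 of the 30 genes tested, 17 with a higher effect at 72 h and 5 with a lower one, beside 38% and 38.1% of all genes tested. A difference of this kind was thus as common among all genes. The differences below are log2 values, effect at 72 h minus effect at 2 h, by TMM. Among the mitochondrially encoded genes they were 2.51 for MT-ND1, 1.85 for MT-ND2, 1.80 for MT-ND6, 1.62 for MT-CYB, 1.60 for MT-ND5, 1.16 for MT-ND4, 1.02 for MT-ATP6 and 1.01 for MT-CO3. Of the nuclear genes, TWNK had 4.55, MTPAP 2.63, POLG2 1.99, TEFM 1.95, TFB2M 1.88, TFAM 1.73, SUPV3L1 1.70, FASTKD2 1.11 and MTERF3 1.01. Lower effects at 72 h than at 2 h were found for ELAC2 at -3.79, LRPPRC at -2.39, PNPT1 at -1.53, POLRMT at -1.33 and POLG at -1.09. By library size, 5 mitochondrially encoded and 7 nuclear genes had a higher effect at 72 h and 5 nuclear genes a lower one, beside 31.2% and 45.7% of all genes.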

How the results depend on the processing

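The counts of called genes at 72 h kept within 1.5 times of their value under DESeq2's size factors, the DESeq2 Wald test, other filters, batch as a term, all 17 libraries in 1 fit, edgeR 4's test and an adjusted p under 0.05, and changed with library size or the mitochondrial total. Library size alone gave 7 mitochondrially encoded genes higher at 48 h and 7 at 72 h, 2, 4 and 7 nuclear genes higher at 24, 48 and 72 h, and 11 lower at 10 h. The mitochondrial total gave 1 mitochondrially encoded gene higher at 10 h, 0 at 24 h (1 lower), 0 at 48 h and 1 at 72 h (2 lower). For nuclear genes it gave 0 lower at 2 h, 0 higher and 11 lower at 10 h, 1 higher and 12 lower at 24 h, 1 higher and 10 lower at 48 h and 3 higher at 72 h. Of all 16521 genes tested at 10 h, it called 503 higher and 5362 lower. Of 14491, it put 1302 higher and 10305 lower at 24 h, and 2910 and 8560 at 48 h. The nuclear genes lower at 24 and 48 h were thus about as frequent as among all genes. Under it, the log2 fold change at 72 h turned to -0.90 for MT-ND3, -0.24 for MT-ND4L, -0.73 for MT-CO1, -0.41 for MT-CO2, -0.13 for MT-CO3, -0.15 for MT-ATP8, -0.46 for MTERF3, -0.64 for SLIRP, -0.36 for FASTKD2 and -0.27 for SSBP1, and that of MT-CO3 at 10 h to -0.26. SLIRP also turned by library size, to -0.20 at 72 h. These scalings differ in what they hold constant by construction.

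Batch as a term gave 13 mitochondrially encoded genes and 2 nuclear genes higher at 10 h, beside 6239 of all 16521 genes tested. At 2 h it gave 1 nuclear gene higher, beside 62 of 16521. Higher nuclear genes at 10 h were 3 by DESeq2's size factors (4 lower) and by its Wald test, and 2 with at least 10 counts in every library. Lower nuclear genes at 2 h were 0 with all 17 libraries in 1 fit and 0 in the libraries of 2 h alone. The replicate block gave 1 mitochondrially encoded gene higher at 2 h, with 1 nuclear gene higher and 3 lower. At 72 h, where libraries share only a number, it called MT-CO1 (0.44, adjusted p = 0.0187) and MT-ND3 (0.27, adjusted p = 0.0998) in addition and changed no other call, and the libraries of 72 h alone, without a block, called the same 2 (0.42, adjusted p = 0.0284; 0.27, adjusted p = 0.0748). Leaving out each library gave, at 2 h, 0 to 1 mitochondrially encoded genes higher and 0 to 1 lower, 0 to 1 nuclear genes higher and 0 to 3 lower. At 10 h it gave 5 to 12 mitochondrially encoded genes higher, 1 to 3 nuclear genes higher and 4 to 9 lower. At 72 h it gave 10 to 11, 11 to 11 and, for lower nuclear genes, 5 to 5. MT-ND2 at 2 h went to 0.92 without replicate 2 of DMSO, the library of batch 2, and to -0.69 without replicate 1. The cause of the other changes was not tested. With 1 library per arm at 24 and 48 h and 2 batches at 2 h, effects there rest on single libraries or pairs.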
